A study of Mus musculus with 5 samples.

Results

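Cycling pro-B and large pre-B cells were examined in 3 mouse bone marrow (BM) single-cell libraries, 1 from untreated (naive) mice and the others from mice given cyclophosphamide (CTX), taken on day 2 (D2 CTX) or day 7 (D7 CTX). Members were chosen by measured UMI counts, and a cell was a member when it held at least 3 UMIs (unique molecular identifiers, 1 per captured transcript) of Vpreb1 and Igll1 together, at least 1 of Cd79a, at least 1 of Mki67 and Top2a together, and no Ms4a1. The rule kept 413 of 21520 cells with at least 200 genes and under 20% mitochondrial UMIs, of which 287 were in naive, 31 at day 2 and 95 at day 7. The members at day 2 were mostly Dntt-positive, carried more p53 target and Myc-related transcripts and fewer mitotic and pre-B stage transcripts than naive members. At day 7 the members were still a smaller share of the marrow, while the same gene groups stood close to their naive levels.

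B cell development in the marrow starts in pro-B cells, which express terminal transferase (Dntt) and Kit and rearrange the immunoglobulin heavy chain locus. A successful heavy chain pairs with the surrogate light chain, made of Vpreb1 or Vpreb2 and Igll1, and with Cd79a and Cd79b to form the pre-B cell receptor. Signals from this receptor and from interleukin 7 drive a burst of division in large pre-B cells, which then leave the cycle, lose the surrogate light chain and rearrange the light chain as small pre-B cells. CTX is an alkylating drug whose active form crosslinks DNA, and dividing cells are known to be sensitive to it.

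The study followed the marrow through depletion and regrowth after CTX. Mice were BALB/c, of both sexes, 4 to 8 weeks old. Treated mice had received 1 intraperitoneal dose of CTX at 150 mg/kg in PBS, and naive mice no treatment. For each condition, dead cells were removed and the BM of 3 mice, in equal cell numbers, was pooled into 1 droplet library with 3' end chemistry. Each condition was thus 1 pooled library, the spread between mice is unknown, and no test between conditions was possible. Values below are UMIs summed over members, in counts per 1000000 UMIs of the members (CPM), with exact Poisson intervals, and shares with exact Clopper-Pearson intervals. Ratios are log2 of CPM + 1 with exact conditional intervals. All intervals are at 95% and cover counting error only.

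The libraries held 7649 barcodes in naive, 6608 at day 2 and 8605 at day 7, with 47086837, 34764874 and 68459527 UMIs. After filtering, 7104, 6126 and 8290 cells had a median of 3953.5, 3033.5 and 7189.5 UMIs. Members were deeper than the other cells, with a median of 12609 UMIs in naive, 11165 at day 2 and 14608 at day 7, and together held 4367511, 526006 and 1606268 UMIs. The D2 CTX sum was therefore the least precise. Single members ranged from 1761 to 54703 UMIs in naive, 2733 to 58224 at day 2 and 2638 to 40791 at day 7. The deepest members weigh most in the sums, above all among the 31 of day 2, which the counting intervals do not cover. Pairs of libraries shared 6, 16 and 13 barcodes, and none of these were member barcodes.

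The label was checked against markers. Ebf1 and Pax5, transcription factors that commit cells to the B lineage, stood at 1814 and 309 CPM in naive, 1310 and 405 CPM in D2 CTX, and 1607 and 284 CPM in D7 CTX members. As a description of the rule, Vpreb1 was at 878, 918 and 746 CPM, Igll1 at 787, 835 and 575 CPM, Cd79a at 849, 354 and 659 CPM, Mki67 at 920, 426 and 657 CPM and Top2a at 1010, 542 and 758 CPM. Il2ra, the CD25 chain used on the cell surface to mark large pre-B cells, was at only 6.18, 1.90 and 3.11 CPM. Il2ra therefore gave the large pre-B side of the label little support, and the surrogate light chain and cycling genes, which chose the members, give it none.

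Few members lay at the surrogate light chain limit of the rule. A Vpreb1 and Igll1 sum of exactly 3 was found in 23 naive, 0 D2 CTX and 5 D7 CTX members, and cells just outside with a sum of 2 numbered 32, 4 and 4. The cycling limit was more populated. Exactly 1 UMI of Mki67 and Top2a was found in 30 naive, 9 D2 CTX and 5 D7 CTX members, while 157, 99 and 41 cells met every other condition with no such UMI. With a single Ms4a1 UMI, 13, 2 and 3 cells fell just outside.

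Some members carried RNA of other cells. At least 1% of UMIs came from a list of 12 neutrophil granule and S100 genes in 24 of 287 members of naive BM (8.36%), in 6 of 31 on day 2 (19.4%) and in 16 of 95 on day 7 (16.8%), with up to 46.3%, 33.1% and 37.5% in single members. The list summed to 22206.5, 30414 and 39143.5 CPM, led by S100a8 or S100a9, and to 850, 1856 and 1599 CPM without these mixed members. Scrublet, a doublet caller, marked 21 of 287, 3 of 31 and 15 of 95 members. Erythroid genes summed to 2367, 171 and 156 CPM. In naive BM 7 members held 1% or more of such UMIs, and 1 of them held 55.2% of the list's UMIs. A D2 CTX member with 27925 UMIs held 84 of Mpo, 47 of Ctsg, 32 of Nkg7 and 14 of Gata2, genes of early myeloid cells, and 110 of the 136 Ifitm1 UMIs of all D2 CTX members. At least 10 UMIs of Mpo and Ctsg together were held by 5 naive, 1 D2 CTX and 3 D7 CTX members, with up to 57, 131 and 149. Monocyte genes summed to 116, 190 and 169 CPM with Fcer1g as the most abundant. T and NK cell genes summed to 22.9, 122 and 39.2 CPM with Nkg7 leading. At day 2 Nkg7 alone was at 105 of the 122 CPM, with most UMIs in the member with early myeloid RNA, so this sum is no sign of T or NK cells. Plasmacytoid dendritic cell genes summed to 5.95, 26.6 and 26.1 CPM. Mature B and plasma cell genes summed to 198, 112 and 183 CPM, and stem and progenitor genes to 60.2, 175 and 67.2 CPM. The part of this RNA in the results was not tested, and the counts of genes past the fold at day 2 are also given without the mixed members where they differ.

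Members made up 4.04% (3.59 to 4.52) of naive, 0.506% (0.344 to 0.718) at day 2 and 1.15% (0.928 to 1.40) at day 7. On the log2 scale the day 2 share lay at -3.0 (-3.58 to -2.46) against naive, and that of day 7 at -1.82 (-2.17 to -1.48). Since the rule counts UMIs, it was also applied after every cell was thinned to 2000 UMIs. The share was then 1.98% (118 of 5951), 0.196% (9 of 4582) and 0.373% (30 of 8045), with 1153, 1544 and 245 shallower cells left out. The thinned ratios were -3.34 (-4.50 to -2.36) and -2.41 (-3.04 to -1.82), so both lay farther below naive than without thinning, and the day 2 and day 7 intervals overlapped. Taken over B lineage cells, those with UMIs of both Cd79a and Cd79b, the order changed. Members were 286 of 2092 such cells in naive (13.7%), 29 of 1766 at day 2 (1.64%) and 93 of 222 at day 7 (41.9%), with ratios of -3.06 (-3.66 to -2.50) and 1.62 (1.26 to 1.96). With every cell thinned to 2000 UMIs they were 70 of 1455 (4.81%), 3 of 1338 (0.224%) and 17 of 119 (14.3%). These thinned ratios were -4.42 (-6.74 to -2.82) and 1.57 (0.712 to 2.35). The plot of shares shows both denominators.

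**Figure D1:**
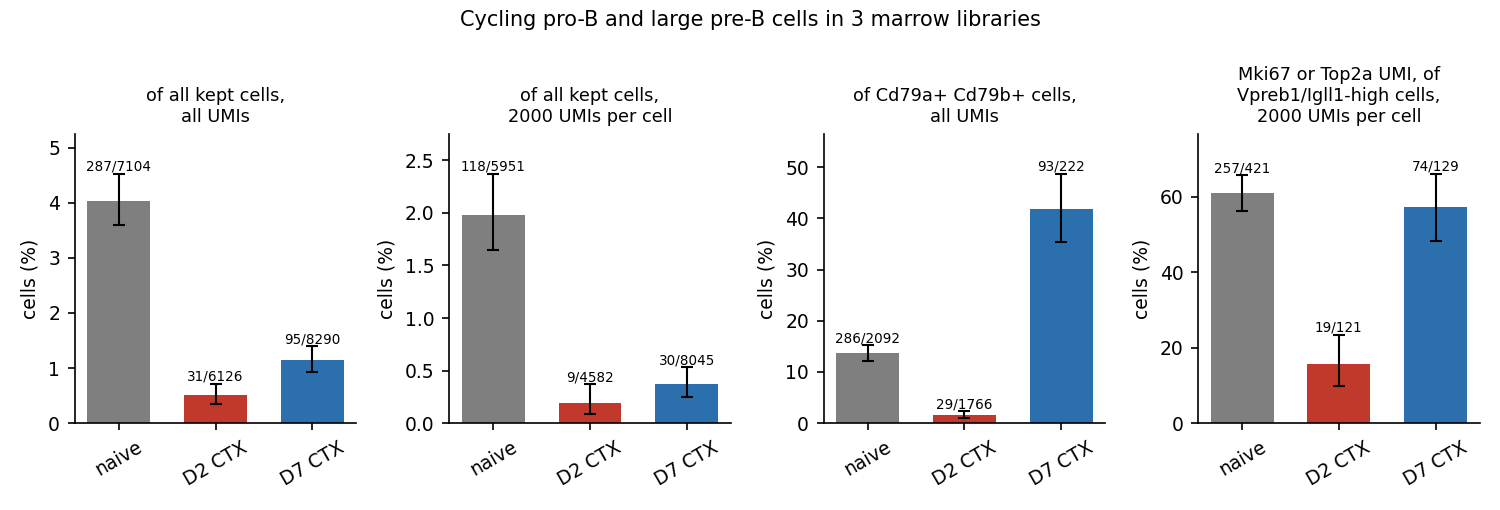
Shares of cells (%) in the 3 marrow libraries, with bars starting at 0, exact 95% intervals and cell numbers above each bar. Day 2 was lowest in each panel, its interval overlapped that of day 7 in the second, and at day 7 members were 1.15% of all kept cells but 41.9% of Cd79a+ Cd79b+ cells.

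The cycling condition of the rule was met by a smaller part of the gate at day 2, which is given as a description. Cells that met the surrogate light chain, Cd79a and Ms4a1 conditions numbered 444 in naive, 130 at day 2 and 136 at day 7, or 6.25%, 2.12% and 1.64% of kept cells. Of these, 64.6% (60.0 to 69.1) held a cycling UMI in naive, 23.8% (16.8 to 32.1) at day 2 and 69.9% (61.4 to 77.4) at day 7. With each of these cells thinned to 2000 UMIs, the cycling shares were 61.0% (257 of 421), 15.7% (19 of 121) and 57.4% (74 of 129). The D2 CTX interval did not overlap the others at either depth. The share of other cell types with a cycling UMI was not measured. With the gate applied after thinning every cell to 2000 UMIs, it held 4.44% (3.93 to 4.99), 2.16% (1.76 to 2.62) and 0.771% (0.591 to 0.987) of the cells left. Day 7 was then lowest, whereas without thinning the day 2 and day 7 intervals of the gate overlapped.

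Stage genes divided the members by library. After members were thinned to 3000 UMIs, which kept 273, 30 and 93 of them, Dntt was found in 21.6% of naive (16.9 to 27.0), 66.7% at day 2 (47.2 to 82.7) and 10.8% at day 7 (5.28 to 18.9). Without thinning it was found in 83 of 287, 27 of 31 and 17 of 95 members. Neutrophil-rich cells, which should lack Dntt, gave 0.244%, 0.125% and 0.0943% at 3000 UMIs, from median depths of 5480, 4452 and 7398 UMIs. Kit, the stem cell factor receptor of pro-B cells, was found in 1.83%, 20% and 5.38% of thinned members (6 of 30 at day 2), against 1.12%, 1.06% and 0.849% in neutrophil-rich cells. The Kit intervals of members and background overlapped in naive BM (0.597 to 4.22 and 0.712 to 1.68), and not at day 2 (7.71 to 38.6 and 0.621 to 1.70) or day 7 (1.77 to 12.1 and 0.638 to 1.11). At 1500 UMIs Kit was found in 1.05% (0.216 to 3.02), 6.45% (0.791 to 21.4, 2 of 31 members) and 4.21% (4 of 95) of naive, D2 CTX and D7 CTX members, with overlapping intervals. Rag1, part of the recombinase, was found in 9.52%, 16.7% and 6.45%, with overlapping intervals, and at 1500 UMIs in 10.8%, 9.68% and 6.32%.

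Some genes of later stages were scarce at day 2. Cd72, an inhibitory coreceptor of B cells, was found in 36.3% of naive, 3.33% at day 2 and 39.8% at day 7 at 3000 UMIs. Nrgn, a calmodulin-binding protein gene, was found in 48.0%, 3.33% and 37.6%. Vpreb3 was found in 96.3%, 73.3% and 91.4%. In naive BM its level was higher in Dntt-positive than in Dntt-negative members (1900 and 1393 CPM), so there it did not mark the later stage. Igkc, the kappa light chain constant gene, was found in 63.4%, 23.3% and 59.1%, against 33.4%, 28.6% and 4.10% in neutrophil-rich cells. The day 2 share of Igkc was therefore read as background, and no difference in its expression was read from these shares. Ighm, the mu heavy chain gene, was found in most members everywhere, at 98.2%, 83.3% and 97.8%, against 12%, 15.4% and 3.49% in neutrophil-rich cells. Il7r, the interleukin 7 receptor chain, was found in 57.1%, 50% and 60.2%, with overlapping intervals. In the plot of stage genes the D2 CTX interval lay apart from both others for Dntt, Cd72, Nrgn, Igkc, Cdkn1a and Ccnb2. It lay apart from naive and overlapped D7 CTX for Kit, Vpreb2, Vpreb3, Ighm, Myl10, Ifitm1 and Ccng1. At 1500 UMIs the D2 CTX interval for Cdkn1a (9.59 to 41.1) overlapped that of D7 CTX (3.71 to 15.9). For Ccng1 it overlapped naive at 1500 UMIs (2.04 to 25.8 and 2.69 to 8.05) and without thinning (33.1 to 69.8 and 31.7 to 43.2).

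**Figure D2:**
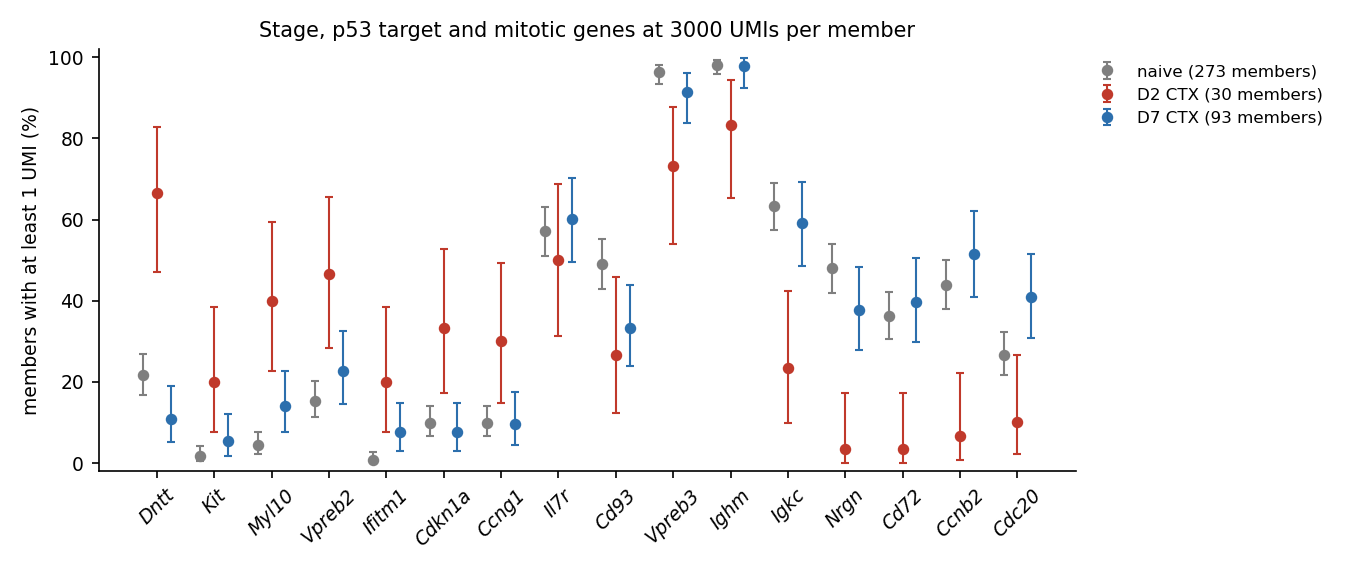
Percent of members with at least 1 UMI of each gene after thinning to 3000 UMIs per member, with exact 95% intervals, for naive (273 members), D2 CTX (30) and D7 CTX (93). Dntt, Kit, Myl10, Vpreb2, Ifitm1, Cdkn1a and Ccng1 lay highest at day 2, and Igkc, Nrgn, Cd72 and Ccnb2 lowest. The day 2 shares of Ifitm1 and Igkc were no higher than in neutrophil-rich cells.

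In naive and D7 CTX BM other genes also differed between Dntt-positive and Dntt-negative members. In naive BM, Rag1 stood at 145 CPM in Dntt-positive and 7.43 CPM in Dntt-negative members, Kit at 18.5 and 1.14 CPM, and Myl10, a myosin light chain gene, at 57.7 and 5.14 CPM. Nrgn went the other way, at 80.8 and 516 CPM, as did Cd72 at 62.3 and 201 CPM. The same order held in D7 CTX BM, where Rag1 stood at 110 and 6.44 CPM, Myl10 at 377 and 20.8 CPM and Cd72 at 62.0 and 233 CPM. In D2 CTX BM only 4 members were Dntt-negative, too few for such a split.

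Across genes, 3525 were compared between D2 CTX and naive members, those with at least 100 UMIs over the pair and 50 CPM in 1 of them. At least 1 log2 unit higher at day 2 were 357 genes (10.1%) and lower 216 (6.13%), or 16.3% in either direction. The median ratio of all compared genes was 0.15. With libraries scaled by the median of gene ratios, 221 of 3345 genes were higher and 283 lower. Lower genes also outnumbered higher ones with each gene's highest member left out (159 higher, 338 lower), with at least 300 UMIs (103 and 168) and at 3000 UMIs per member (62 and 169), so the balance of directions is not firm. Without the mixed members 353 genes (9.92%) were higher and 238 (6.69%) lower, or 16.6% of 3557. Against naive, D7 CTX members had 28 of 3027 genes (0.925%) higher and 4 (0.132%) lower, or 1.06%, with a median of -0.02. Both comparisons use the same naive library, and their values are given side by side only. The day 2 sum held fewer UMIs than that of day 7, and its counting intervals were wider.

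p53 target genes were higher at day 2. Of 26 on the list 9 passed the count filter, and 7 were higher and 0 lower by 1 log2 unit, with a median of 1.25 beside 0.15 over all genes compared. Without the mixed members 5 were higher. Summed over the whole list, without a filter, the level was 1054 CPM in naive, 2447 at day 2 and 1052 at day 7, which put day 2 at 1.21 (1.12 to 1.30) and day 7 at -0.00 (-0.08 to 0.08) on the log2 scale. Cdkn1a, on chromosome 17 from 29090976 to 29100727 (mm10, plus strand), encodes the cell cycle inhibitor p21. It stood at 24.7 CPM in naive, 279 at day 2 and 33.0 at day 7, a day 2 ratio of 3.45 (3.13 to 3.87). Cdkn1a UMIs were found in 18 of 31 D2 CTX, 74 of 287 naive and 25 of 95 D7 CTX members, and the level at day 2 was 233 CPM without the highest member, the one with myeloid RNA, which held 21.1% of them. At 3000 UMIs the shares were 33.3% at day 2 and 9.89% in naive members, against 11.3% and 1.61% in neutrophil-rich cells of the same libraries.

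Other p53 targets followed. Ccng1, on chromosome 11 from 40748552 to 40755311 (minus strand), encodes cyclin G1 and stood at 32.1, 167 and 23.0 CPM, a day 2 ratio of 2.35 (1.98 to 2.78). The D2 CTX member with myeloid RNA held 22.7% of the Ccng1 UMIs of day 2, and the level without it was 137 CPM. At 3000 UMIs Ccng1 was found in 30% of D2 CTX members, 21.1% of neutrophil-rich and 28.1% of Ms4a1-positive cells of that library. Bax, a pore-forming death effector, stood at 109, 260 and 117 CPM, a ratio of 1.25, and at 241 CPM on day 2 without the member with myeloid RNA. Aen, a nuclease of apoptosis, had a ratio of 1.5, Ei24 of 1.36, Trp53inp1 of 1.12 and Mdm2, the ligase that degrades p53, of 1.07. Rps27l at 0.80 stayed under the fold, and Btg2, an antiproliferative gene, was at -0.07. Of the BCL2 family, 3 of 18 genes passed the filter. Bax is on this list and on the p53 list, so the sums of these lists are not separate. Bcl2l11, which encodes the death inducer BIM, stood at 15.6, 74.1 and 15.6 CPM, a ratio of 2.18, and the prosurvival gene Mcl1 had a ratio of 0.73. The family summed to 446, 821 and 456 CPM, a ratio of 0.88 at day 2 and 0.03 at day 7.

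**Figure D3:**
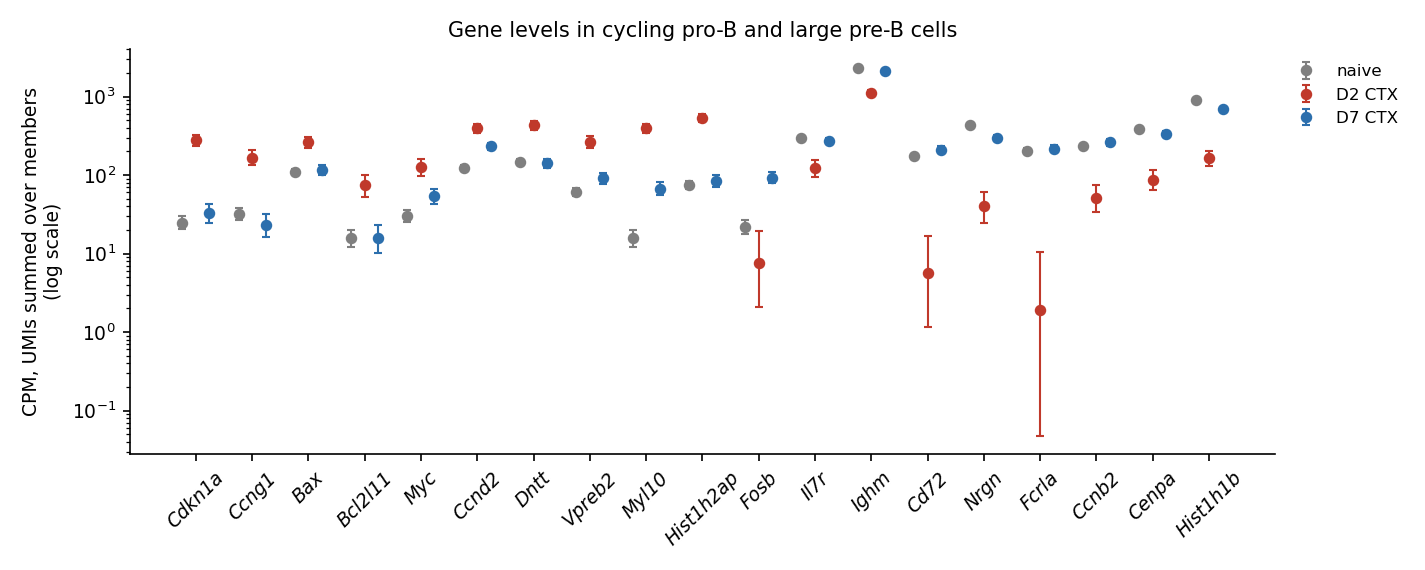
CPM of 19 genes on a log scale, from UMIs summed over members of each library, with exact Poisson 95% intervals. Cdkn1a was highest at day 2 (279 CPM) and Cd72 and Fcrla were lowest there (5.70 and 1.90 CPM), while for Cdkn1a, Bax and Dntt naive and D7 CTX values lay close together.

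Mitotic genes were lower at day 2. Of 52 genes on the G2/M list, which leaves out Mki67 and Top2a, 47 passed the filter, and 26 were lower and 0 higher by 1 log2 unit, with a median of -1.10, or 27 lower without the mixed members. Only Cbx5 (0.31) and Rangap1 (0.16) were above 0. The list summed to 14752 CPM in naive, 7146 at day 2 and 13094 at day 7, ratios of -1.05 (-1.09 to -1.0) and -0.17 (-0.19 to -0.15). Ccnb2, which encodes cyclin B2 of the mitotic kinase, stood at 233, 51.3 and 260 CPM, a day 2 ratio of -2.16, and was found in 217 of 287, 7 of 31 and 74 of 95 members, with 48.1% of its D2 CTX UMIs in 1 member. Cenpa, the centromeric histone, stood at 389, 87.5 and 335 CPM, a ratio of -2.14. Ccnb1 had a ratio of -2.16, Nusap1 of -2.01, Cenpf of -1.96 and Cdc20, an activator of the anaphase ligase, of -1.55.

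S phase genes were nearly level. Of 44 genes 40 passed the filter, and 2 were lower at day 2, Rrm2 (-1.63), a subunit of ribonucleotide reductase, and Gmnn (-1.07), the inhibitor of replication licensing, with a list median of -0.07. The list summed to 6463, 5633 and 6659 CPM, ratios of -0.20 and 0.04. Replication-dependent histones summed to 2242, 1124 and 1764 CPM, ratios of -1.0 and -0.35. Hist1h1b, a linker histone gene, stood at 901, 163 and 704 CPM (-2.45 at day 2), while Hist1h2ap stood at 74.6, 534 and 84.7 CPM (2.82). Histone genes are near copies of each other and share reads, so their single values are uncertain.

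The lists were also counted in single members. The G2/M list took a median of 130 UMIs per 10000 in naive (quartiles 90 to 200, highest 457), 55 at day 2 (30 to 76.7, highest 100) and 110 at day 7 (76.7 to 180, highest 433) at 3000 UMIs. The highest D2 CTX member was below the naive median at this depth and without thinning (108.5 and 127), and above it at 1500 UMIs (153 and 127). The S phase list took 63.3, 50 and 66.7 per 10000, and its ranges overlapped throughout. The p53 list took 10, 23.3 and 10 per 10000. The highest D2 CTX member on the p53 list reached 100 and the highest naive member 26.7, or 61.6 and 36.0 without thinning and 60 and 46.7 at 1500 UMIs. Without thinning the highest was the D2 CTX member with myeloid RNA. More G2/M than S phase UMIs were found in 76.2% of naive, 53.3% at day 2 and 72.0% at day 7.

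**Figure D4:**
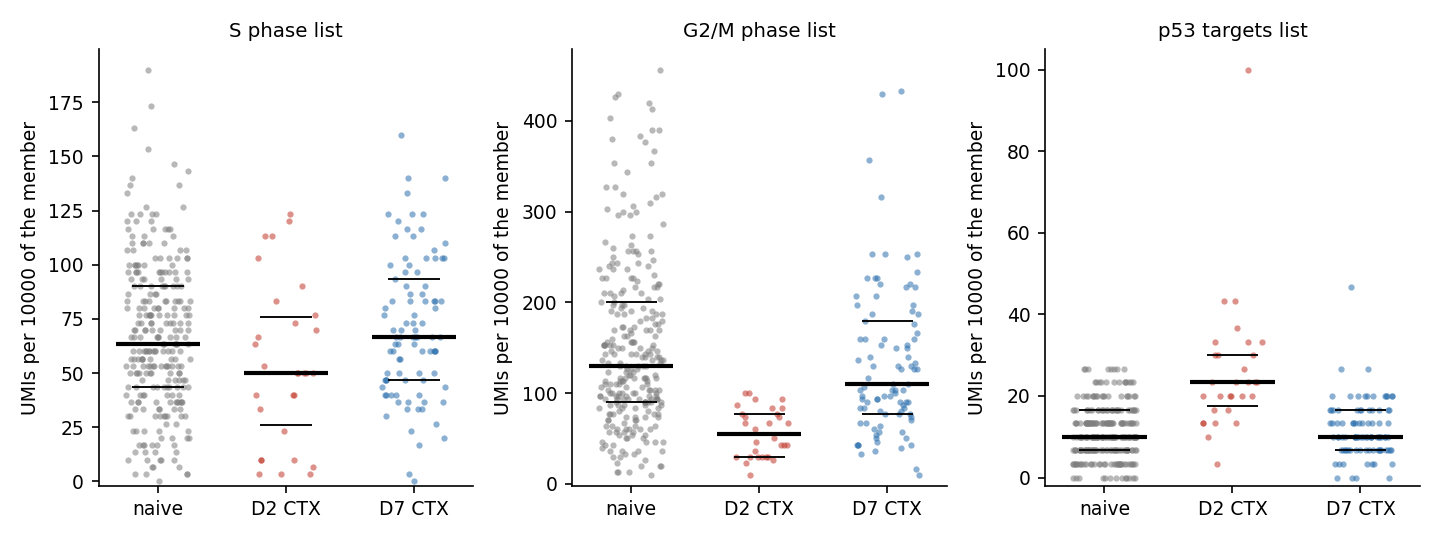
UMIs of the S phase, G2/M phase and p53 target lists per 10000 UMIs of each member thinned to 3000 UMIs, 1 point per member (273 naive, 30 D2 CTX, 93 D7 CTX), with thick lines at medians and thin lines at quartiles. At this depth no D2 CTX member lay above 100 on the G2/M list, while naive members reached 457.

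Promoters of the G2/M list, whether or not the gene was past the fold at day 2, often held short sequences in common. The cell cycle homology region, read here as TTTGAA on either strand, and the CCAAT box (CCAAT or ATTGG) are known elements of mitotic promoters, and a match of one can share at most 1 base with a match of the other. Promoters came from RefSeq (GRCm38.p6) as windows of 250 bases before to 50 after each start, and 45 of 52 G2/M genes had one. TTTGAA was found in 32 of 50 G2/M promoters (64.0%), 6 of 35 S phase promoters (17.1%) and 17.9% of all 32851 promoters. CCAAT was found in 37 of 50 (74.0%), 23 of 35 (65.7%) and 37.4% of all. Among G2/M genes at least 1 log2 unit lower at day 2, 19 of 25 promoters held TTTGAA and 19 of 25 CCAAT, and among the other compared G2/M genes 13 of 20 and 14 of 20 did. A match is a description of the window only. The sequences below run from 120 bases before to 30 after the start of 4 genes that were lower at day 2, shown because the elements lie close to the start, with TTTGAA and CCAAT matches of either strand in capitals. Ccnb2 lies at chr9:70421525-70421674 (minus strand), Cenpa at chr5:30666766-30666915 (plus), Cenpf at chr1:189688057-189688206 (minus) and Ckap2l at chr2:129297183-129297332 (minus).
Ccnb2: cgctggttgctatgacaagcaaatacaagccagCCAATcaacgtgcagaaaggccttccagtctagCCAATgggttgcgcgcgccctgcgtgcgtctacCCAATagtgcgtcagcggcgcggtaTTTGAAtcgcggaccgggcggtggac
Cenpa: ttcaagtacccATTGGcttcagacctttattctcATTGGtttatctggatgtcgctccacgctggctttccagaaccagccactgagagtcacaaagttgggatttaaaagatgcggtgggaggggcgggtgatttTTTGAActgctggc
Cenpf: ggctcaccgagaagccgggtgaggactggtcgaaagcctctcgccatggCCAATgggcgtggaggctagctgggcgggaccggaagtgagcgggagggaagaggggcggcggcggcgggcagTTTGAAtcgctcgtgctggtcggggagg
Ckap2l: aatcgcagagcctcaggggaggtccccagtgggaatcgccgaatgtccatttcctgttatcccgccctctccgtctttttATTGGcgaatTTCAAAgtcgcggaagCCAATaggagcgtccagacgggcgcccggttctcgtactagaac
In Ccnb2, Cenpa and Cenpf the TTTGAA match began 5, 17 and 3 bases after the start, and in Ckap2l it read TTCAAA on the printed strand.

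Ribosome biogenesis and Myc target genes were higher at day 2. Of 25 genes 23 passed the filter, and 10 were higher and 0 lower, with a median of 0.97. The list summed to 10193, 17272 and 10837 CPM, ratios of 0.76 (0.73 to 0.79) and 0.09 (0.06 to 0.11). Myc, the growth regulator, stood at 30.2, 127 and 54.2 CPM, a ratio of 2.04, and was found in 18 of 31 D2 CTX and 52 of 287 naive members. Srm, of polyamine synthesis, had a ratio of 1.62, Gnl3, a nucleolar protein gene, of 1.52 and Ncl, nucleolin, of 1.21 (1390, 3205 and 1412 CPM). The E-box CACGTG was found in 8 of 26 promoters of this list (30.8%) and 7.15% of all promoters. It was also found in 6 of 29 promoters of p53 targets (20.7%) and 2 of 17 of pre-B cell receptor genes (11.8%). For S phase and G2/M genes it was found in 3 of 35 (8.57%) and 3 of 50 (6%). Glycolysis genes summed to 3623, 4939 and 4105 CPM, ratios of 0.45 and 0.18, with Eno1 at 1.80 and Pfkl at 1.42 past the fold and Gapdh at -0.16.

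Of 18 genes of interleukin 7 signalling, 8 passed the filter. At day 2, 4 were higher, Myc, Ccnd2, Socs2 and Pim1, and 1 was lower. The lower one was the receptor gene itself, Il7r, which stood at 300, 124 and 270 CPM (-1.27). At 3000 UMIs per member, though, Il7r was found in 57.1%, 50% and 60.2% of members, with overlapping intervals. Ccnd2, cyclin D2, stood at 122, 395 and 232 CPM, ratios of 1.68 at day 2 and 0.92 at day 7, while Ccnd3, cyclin D3, stood at 729, 452 and a day 7 ratio of 0.09 (-0.69 at day 2). Socs2, a feedback inhibitor of cytokine signals, had a ratio of 1.66 and the kinase gene Pim1 of 1.44. Of 24 cyclins, kinases and inhibitors 20 passed, with 2 higher (Cdkn1a and Ccnd2) and 6 lower, or 5 lower without the mixed members. Cdkn2c, the inhibitor p18, was at 64.3 CPM in 140 naive members and at 1 UMI (1.90 CPM) at day 2, a ratio of -4.49 (-10.39 to -2.59). Cdkn2d and Cdc25b were both at -1.41.

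Genes of the pre-B stage were lower at day 2. Of 11 genes 8 passed the filter, and 4 were lower and 0 higher, with a median of -0.92. In unmixed members 5 were lower, with a median of -1.11. The list summed to 4509, 1962 and 4179 CPM, ratios of -1.20 (-1.29 to -1.11) and -0.11 (-0.15 to -0.07). Cd72 stood at 174, 5.70 and 210 CPM, with 3 UMIs at day 2 and a ratio of -4.70 (-7.21 to -3.38). Nrgn stood at 429, 39.9 and 294 CPM (-3.39), Cd24a, the surface glycoprotein CD24, at 1706, 388 and 1772 CPM (-2.13) and Vpreb3 at 1494, 702 and 1256 CPM (-1.09). Ybx3 (0.60) and Bst1 (0.68) were above 0 and under the fold. The pro-B stage list of 12 genes gave 1 higher (Dntt, 147, 430 and 143 CPM, 1.54) and 1 lower (Il7r) of 6 compared.

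Pre-B cell receptor signalling was mixed. Of 20 genes 17 passed the filter, and 1 was higher and 6 were lower at day 2, with a median of -0.27. Ighm stood at 2291, 1106 and 2099 CPM (-1.05), Cd79b at 441, 198 and a day 7 ratio of -0.14 (-1.15 at day 2), and the kinase genes Blk and Lyn had ratios of -1.96 and -1.14. Ptpn6, the phosphatase SHP-1, was at -1.21. Syk (-0.36), Blnk (-0.11) and Btk (0.36) were under the fold, and Pik3cd, a catalytic subunit of PI3 kinase, was the 1 higher gene (1.38). Igkc stood at 524, 129 and 486 CPM (-2.01), a level that includes the background described above. MHC class II genes, which mark later B cells, summed to 252, 91.3 and 180 CPM, with H2-Aa at -3.07.

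Transcription factors of the lineage split as well. Of 28 genes 23 passed, and 2 were higher and 6 lower at day 2, with a median of -0.47. Leaving out the mixed members gave 2 higher and 8 lower. The factors that set B lineage identity were under the fold, Ebf1 at -0.47, Pax5 at 0.39 and Tcf3 at -0.44, although Ebf1 was past it among Dntt-positive members (2812 and 1357 CPM, -1.05). Factors at later steps were lower, Spib at -3.12 (90.4 and 9.51 CPM), Ikzf3 at -3.10 (56.6 and 5.70 CPM), Bach2 at -2.27, Pou2af1 at -1.30 and Irf4 and Pou2f2 at -1.21. Runx1 (1.35) and Bcl11a (1.23), which act early in the lineage, were higher.

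Among genes ranked by the bound of their interval nearest to 0, those highest at day 2 were led by Ifitm1, an interferon-induced membrane protein gene, at 1.37 CPM in naive, 259 at day 2 and 37.4 at day 7. Of its D2 CTX UMIs, 80.9% were in the 1 member with myeloid RNA described above, and without that member the level was 52.2 CPM. At 3000 UMIs Ifitm1 was found in 20% of D2 CTX members (7.71 to 38.6), in 24.3% of D2 CTX neutrophil-rich cells (22.2 to 26.5) and in 9.37% of D2 CTX Ms4a1-positive B cells (6.78 to 12.5), and since the members' interval overlapped both others no expression was read from the share. Within D7 CTX members it stood at 205 CPM in Dntt-positive and 12.2 CPM in Dntt-negative members. Myl10 stood at 15.6, 395 and 67.2 CPM (4.58) and was spread over 25 of 31 D2 CTX members, 41 of 287 naive and 27 of 95 D7 CTX members. No more than 0.125% of D2 CTX neutrophil-rich cells held it. Dusp5, a MAP kinase phosphatase gene, had a ratio of 3.33, Gbp7, a guanylate binding protein gene, of 2.93, Ltb, lymphotoxin beta, of 2.70, Slc25a1, the mitochondrial citrate carrier, of 2.54 and Gimap6 of 2.62. Gm10076, named only by a gene model, stood at 114 and 1019 CPM (3.15) and in cells of the same gate without a cycling UMI its ratio was 3.84.

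Those lowest at day 2 were led by Fcrla, an Fc receptor-like gene of B cells, at 205, 1.90 and 216 CPM. It had 894 UMIs in 191 naive members and 1 UMI at day 2, a ratio of -6.15 (-12.06 to -4.27). Rsph1 was likewise at 1 UMI (-5.26, -11.17 to -3.37). Pafah1b3 stood at 355, 24.7 and 338 CPM (-3.79) and was found in 241 of 287, 9 of 31 and 83 of 95 members. Cdkn3, a phosphatase gene of the cell cycle, had a ratio of -3.62, Gm30211 of -3.90 and 4930597A21Rik of -3.50.

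The comparison was repeated in Dntt-positive members alone, 83 naive and 27 D2 CTX, because Dntt shares differed between the libraries. Of 2106 genes compared, 105 were higher and 109 lower. Of 240 genes that passed the fold among all members and were compared here, 143 passed it in the same direction. The p53 list had a ratio of 1.10 (0.97 to 1.23), G2/M of -1.0 (-1.06 to -0.95), ribosome biogenesis and Myc targets of 1.03 (0.98 to 1.07) and pre-B stage of -1.03 (-1.13 to -0.92), while the S phase list was at 0.09. The pro-B stage list went the other way from all members, at -0.68 (-0.82 to -0.54) against 0.24. Of its 6 compared genes 3 were lower, among them Rag1 (145 and 66.1 CPM, -1.12). This list includes Dntt, the gene that chose these members, so its reversal is given as a description only. Of 17 compared lineage transcription factors 4 were lower and 0 higher. Cdkn1a had a ratio of 2.58, Ccng1 of 1.97 and Ccnb2 of -2.30. Carriers of Dntt were 83 of 287 naive but 27 of 31 D2 CTX members, with median depths of 8007 and 10643 UMIs. Their Dntt levels (741 and 482 CPM) depend on that choice, so no difference in Dntt expression was read from them. Nrgn, at -3.39 among all members, was at -0.84 here from 21 and 70 UMIs.

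Members were also divided by their raw UMIs of Mki67 and Top2a, values of the rule that follow depth. With 5 as a limit chosen after seeing the values, 5 or more UMIs of Mki67 and Top2a were held by 238 of 287 members of naive BM (82.9%), 17 of 31 on day 2 (54.8%) and 81 of 95 on day 7 (85.3%). The members above it were deeper, with a median of 14660 UMIs against 3966 in naive BM and of 20372 against 7313.5 at day 2. No comparison of other genes was drawn from this division.

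The cells of the same gate with no cycling UMI, 157 naive, 99 D2 CTX and 41 D7 CTX, were the class nearest to the members and were shallower, with medians of 2726, 3597 and 2348 UMIs, so that the absence of a cycling UMI depends in part on depth. In them the p53 list had a day 2 ratio of 0.06 (-0.08 to 0.21), and Cdkn1a one of -0.16, with intervals apart from those of members. Cdkn1a was not higher in members alone, since its day 2 ratio was 2.65 in Ms4a1-positive B cells and 1.97 in cells below the surrogate light chain limit. The G2/M list was at 0.03 from a low level, whereas ribosome biogenesis and Myc targets were at 0.67 (0.58 to 0.76), similar in size to 0.76 in members. Pre-B stage genes were at -0.44 (-0.52 to -0.36) in these cells. Immediate early genes, which respond within minutes to stimulation or handling, summed to a ratio of 0.38 in members and -0.65 in these cells at day 2. Of 8 compared in members 1 was higher at day 2, Fos (1.77), and 2 without the mixed members. The member with myeloid RNA held 32.7% of the D2 CTX UMIs of Fos, which stood at 74.3 CPM without it. The plot of list ratios sets both cell classes side by side.

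**Figure D5:**
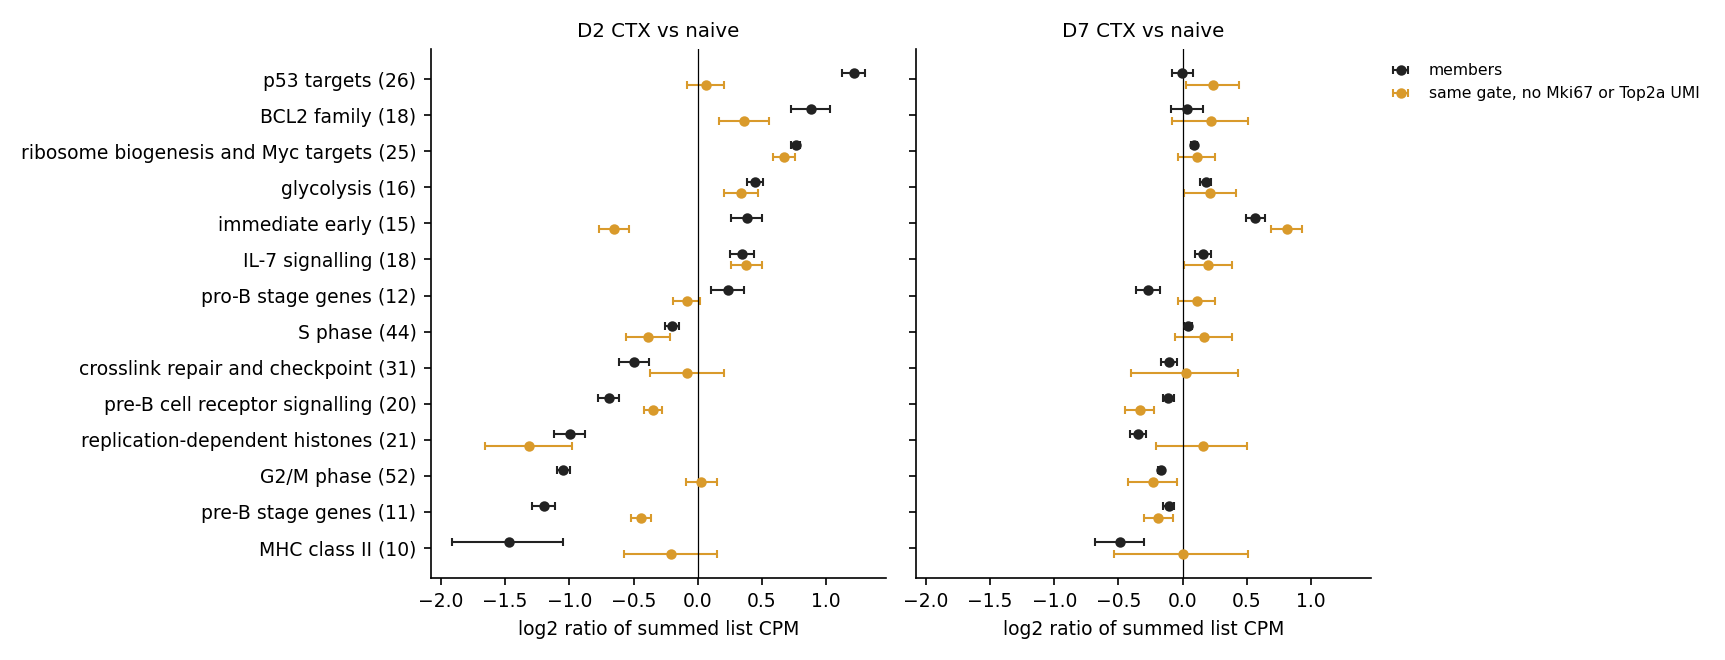
Log2 ratio of summed CPM of 14 gene lists (number of genes in brackets) for D2 CTX and D7 CTX over naive, in members and in cells of the same gate with no Mki67 or Top2a UMI, with exact 95% counting intervals. At day 2 the p53 list was at 1.21 in members and 0.06 in the other cells, and at day 7 most lists of members lay near 0.

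In further lists few genes passed the filter. Crosslink repair and checkpoint genes had 1 lower of 9 compared (H2afx, -1.39), with Brca1 at -0.36 and Atr at 0.50, and the whole list of 31 at -0.49. Aldehyde and glutathione detoxification genes, whose products can inactivate CTX metabolites, had 1 lower of 6 compared, Gclc (-1.12), and Aldh2 was at 0.58. In unmixed members Mgst1 (-1.16) was lower as well. Of 16 marrow retention and adhesion genes 7 were compared and 4 were higher, among them Cd9, Itgb1 and Itgb2, while Cxcr4, the receptor that holds cells in the marrow, was at -0.75. Without the mixed members 3 were higher and 1, Cxcr4 (-1.03), was lower, and the list median was 0.60 in place of 1.23. Of 13 V(D)J recombination and end joining genes 6 were compared, with Dntt higher and Hmgb2 (-1.23) lower. None of 4 compared interferon-stimulated genes passed the fold, and without the mixed members Ifi27l2a did (-2.43, against 0.54 in all members).

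At day 7 most lists of the members lay near their naive levels. None of the 47 compared G2/M, 40 S phase, 17 pre-B cell receptor, 23 transcription factor and 21 ribosome biogenesis genes passed the fold. The G2/M median was -0.22, with 42 of 47 genes below 0. Of the 10 genes ranked highest, 8 were Stfa2 (6.12), Stfa3, BC100530, Stfa2l1, Gm5483, S100a6, Retnlg and Ifitm6 (1.85), several of them known from neutrophils. Without the mixed members their ratios were 1.14, 0.00, 2.56, 0.34, -1.20, -0.13, -0.36 and 0.01. Stefin genes such as Stfa2 are near copies and share reads. Without the mixed members 9 of 3071 genes (0.293%) were higher and 6 (0.195%) lower, or 0.488% in either direction. All 4 genes past the fold in the lower direction were on the erythroid list, left apart from the ranking, whose naive UMIs were mostly in 1 member.

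The other high genes stayed past the fold without the mixed members. Fosb, an immediate early transcription factor gene, stood at 21.8 CPM in naive, 7.60 at day 2 and 92.8 at day 7, a day 7 ratio of 2.04 (2.32 without mixed members), and was found in 54 of 95 D7 CTX and 56 of 287 naive members. Fos stood at 30, 105 and 105 CPM (1.78 at day 7), with 30.5% of its naive UMIs in 1 member. Of 15 immediate early genes 8 were compared at day 7 and 2 were higher, with a median of 0.74, and the list had a ratio of 0.57 in members and 0.81 in cells of the same gate with no cycling UMI. Myl10 was at 2.04 (2.07 without mixed members). The 10 genes ranked lowest at day 7, among them Ctse (-0.92), Ccnt2 (-0.99), Blvrb (-0.90), Gas2l3 (-0.90) and Cenpe (-0.74), were all under the fold.

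The 17 Dntt-positive members of D7 CTX BM did not share every naive level. Their G2/M list had a ratio of -0.79 (-0.86 to -0.72) to the 83 naive ones, and their immediate early list one of 1.13 (1.0 to 1.26). Among Dntt-positive members Myl10 stood at 57.7 CPM in naive, 433 at day 2 and 377 at day 7, Ccnd2 at 88.8, 384 and 386 CPM, and Cdkn1a at 43.8, 267 and 110 CPM. Their p53 list was at 0.06 (-0.16 to 0.26).

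Between D7 CTX and D2 CTX members, 3076 genes were compared, with 172 (5.59%) higher and 189 (6.14%) lower at day 7, or 11.7%. With each gene's highest member left out, 249 were higher and 105 lower. G2/M genes had 19 higher and 0 lower of 40 compared, histones 7 higher and 1 lower (Hist1h2ap, -2.64) of 10, and ribosome biogenesis and Myc targets 0 higher and 9 lower of 22. Leaving out the mixed members gave 21 higher G2/M genes and 7 lower ribosome biogenesis and Myc targets. Fcrla (6.23), Cd72 (4.98), Pafah1b3 (3.72), Fosb (3.45) and Nrgn (2.85) were among the 10 highest, and Cdkn1a (-3.04), Ccng1 (-2.81), Myl10 (-2.54), Mdn1 (-2.24), Hsph1 (-2.13) and Pnp (-2.06) among the 10 lowest. This comparison shares a library with each of those above.

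The Vpreb pair of surrogate light chain genes differed, which is given as a description because Vpreb1 was part of the rule. Vpreb2 took 6.49% (5.75 to 7.29) of Vpreb1 and Vpreb2 UMIs in naive, 22.5% (19.3 to 26.0) at day 2 and 10.9% (9.31 to 12.7) at day 7. It stood at 60.9, 266 and 91.5 CPM and was found in 111 of 287, 29 of 31 and 47 of 95 members. Among Dntt-positive members the shares were 7.20%, 22.3% and 13%. The D2 CTX members without Vpreb1, at 36939 and 53068 UMIs, held 13 and 18 Vpreb2 UMIs and met the rule through Igll1. Vpreb1 and Vpreb2 transcripts were identical at 739 of 759 aligned bases (97.4%), so how reads were divided between them is uncertain.

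Within a library, members differed from the cells of the same gate with no cycling UMI in more than the cycle. In naive BM 467 of 3802 genes (12.3%) were higher and 803 (21.1%) lower in members, as a description, since the rule chose both classes. At day 2 it was 228 (14.2%) and 266 (16.5%) of 1611, and at day 7 514 (20.4%) and 286 (11.4%) of 2515. Beside 43 of 47 G2/M and 36 of 40 S phase genes, 14 of 19 ribosome biogenesis and Myc genes were higher in naive members, 15 of 18 at day 2 and 15 of 19 at day 7. Rag1 was at a log2 ratio of -3.99 in naive, -3.06 at day 2 and -4.52 at day 7, Dntt at -3.0, -1.74 and -3.46, and Ebf1 at -1.72, -1.67 and -1.90. Bcl2l11 was at -1.63 in naive and -2.52 in D7 CTX but 0.35 in D2 CTX BM, and Cdkn1a at -0.31, 3.29 and -1.22. These ratios are between cell classes of 1 library and are no test.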

How the data were processed

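The authors deposited raw UMI counts per gene and barcode, made with Cell Ranger 3.1 on mm10 per the submitters' processing notes, which also name Seurat 5.0. The study counts more cells than these files hold barcodes. Cells with at least 200 genes and under 20% mitochondrial UMIs were kept, and doublets were not removed. Scrublet (scanpy 1.11.5) marked doublets for comparison. Counts were summed over members of each library, and genes with at least 100 UMIs in a pair of libraries and 50 CPM in 1 of them were compared on log2(CPM + 1). Being 1 log2 unit apart counted as past the fold. Named genes were the 10 highest and 10 lowest ratios ranked by the interval bound nearest to 0, leaving apart immunoglobulin, mitochondrial, sex-linked and other cell types' marker genes, and examples of each list (its 2 highest, its 2 lowest and those it is known for). Members and lists were chosen with earlier results of these data known, and the 1% limit for mixed members after seeing the values. Thinning used a fixed seed. The comparison was tested on simulated data for D2 CTX against naive (31053 genes), where the fold was passed by 96 of 100 genes shifted by 1.5 on the log2 scale and by 100 of 100 shifted by 3. For D7 CTX against D2 CTX (31053 genes) it was passed by 100 of 100 and 79 of 100. The simulated counts were Poisson draws from the naive sum, and only genes at 100 CPM or more were shifted. They held no spread between cells or mice, so these rates cover counting error only. Sorted monocyte libraries entered no comparison. Python 3.11.15, numpy 2.4.6, scipy 1.17.1 and pandas 2.3.3 were used. Values of a few list genes are not reported here.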

Additional observations from a re-analysis of the deposited data

Results flagged for a closer look

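The sorted monocyte libraries, which entered no comparison, held cells that met the member rule. They were 3 of 2564 kept cells (0.117%, 0.0241 to 0.342) in monocytes sorted after CTX and 1 of 1891 (0.0529%, 0.00134 to 0.294) in monocytes sorted from naive mice, and the intervals overlap.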

How the results depend on the processing

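No paired analysis was possible because each condition was 1 pooled library with no replicate numbers. The D2 CTX share (-3.0) was -3.59 with at least 5 cycling UMIs and -4.70 (-10.0 to -2.12) at 1000 UMIs, where 1 of 5527 D2 CTX cells met the rule. The D7 CTX share (-1.82) was -2.41 at 2000 UMIs, -2.46 at 1000 UMIs, and reversed to 1.62 of B lineage cells. The 573 genes past the fold between D2 CTX and naive were 214 among Dntt-positive members, 3739 without a filter, 271 with at least 300 UMIs and 231 at 3000 UMIs. The 32 between D7 CTX and naive were 15 without mixed members, 79 among Dntt-positive members, 840 without a filter, 20 with at least 300 UMIs, 50 as a mean of single-member CPM and 18 at 3000 UMIs. The 361 between D7 CTX and D2 CTX were 96, 3912, 95 and 51 among Dntt-positive members, without a filter, with at least 300 UMIs and at 3000 UMIs. Of these, the filter, thinning and the choice of Dntt-positive members change how many genes are tested. Among Dntt-positive members 2106 genes were compared between D2 CTX and naive, 1677 between D7 CTX and naive and 1067 between D7 CTX and D2 CTX. Past the fold were 10.2%, 4.71% and 9.0% of them, beside 16.3%, 1.06% and 11.7% among all members. Dntt was found in 28.9% of naive and 87.1% of D2 CTX members without thinning. Without mixed members Gm5483 (-1.20), S100a6 (-0.13) and Retnlg (-0.36) reversed between D7 CTX and naive, and Stfa2l1 (-1.09) between D7 CTX and D2 CTX. With 31 members, day 2 limits the precision, and mice cannot be separated within a pool.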
